A study of Bos taurus with 17 samples.

Results

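Proteasome and chaperonin subunit genes were taken from the table by symbol: every row named PSMA to PSMG followed by a number, every row named CCT2 to CCT8, and TCP1, leaving out the inducible subunits PSMB8, PSMB9 and PSMB10. The rule found 52 of 12894 genes, and no measured value entered it, although the set was chosen with earlier results of these data known. Of these, 43 belong to the proteasome: 7 alpha and 7 beta subunits of the 20S core, 6 ATPases of the 19S cap, 14 non-ATPase (PSMD) genes of the cap, 5 activators or inhibitors and 4 assembly chaperones of the core. The PSMD genes include PSMD5, PSMD9 and PSMD10, which encode assembly chaperones of the cap and are counted with its subunits because of their symbols. The other 9 encode the cytosolic chaperonin CCT.

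The proteasome degrades proteins tagged with ubiquitin. Its 19S cap recognises, unfolds and feeds the substrate into the barrel of the 20S core, where the beta ring holds the cutting sites and the alpha ring forms the gate. CCT, also called TRiC, is a closed barrel of paralogous subunits that folds newly made proteins, above all actin and tubulin. In many cells each complex is kept in step by making its subunits together, and both are busy where protein synthesis and turnover are high, as in dividing cells.

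Bovine mesenchymal stem cells of the umbilical cord, grown as a primary culture, were profiled by MARS-seq, which reads the ends of polyadenylated transcripts. The study tested cellulose scaffolds meant for cultivated meat. Untreated cells on plastic were taken 1 day after seeding (day 0, 3 libraries). Further cells on plastic were taken at day 3 (3 libraries) and day 21 (2 libraries) of a myogenic differentiation medium, which held less serum than the growth medium, ITS, BSA, dexamethasone, ascorbic acid 2 phosphate, vascular endothelial growth factor, insulin-like growth factor and a fibroblast-like growth factor. Cells on scaffolds were taken at day 21, on the media scaffold (4 libraries), with the same medium, or on the smart scaffold (3 libraries), which carried the growth factors itself while its medium had none. Day 0 cells on scaffold were not analysed here. The design text calls libraries of a group biological replicates. Nothing in the labels says that they came from separate animals, so p-values measure only the spread between these libraries, which may be technical.

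Library depth was 2197356 to 15483745 recovered reads, with the fewest in the second plastic library of day 21. All 9 stromal marker genes checked were in the table, with a summed level of 145843 to 156855 normalised reads at day 0, 134369 to 145543 at day 3, 207515 to 214291 on plastic at day 21, 525251 to 529592 on the media scaffold and 477473 to 549735 on the smart scaffold. This sum moved with the groups compared, and its part in the members' values was not tested. Most of it came from COL1A1, COL1A2, COL3A1 and VIM, and the 9 genes did not move together. Against plastic at day 21, 6 were higher and 2 lower on the media scaffold (66.7% and 22.2%, against 32.9% and 30.6% of all genes tested). On the smart scaffold 5 were higher and 3 lower than on plastic (55.6% and 33.3%, against 32.8% and 31.1%). ENG, among the lower ones, had 2935 and 3880 on plastic at day 21 and 514 to 626 on the scaffolds. Of 6 blood and immune markers, 4 were in the table, and their sum was 26.8 to 30.2 at day 0, 26.8 to 75.4 at day 3, 117 to 168 on plastic at day 21, 22.2 to 30.8 on the media scaffold and 23.1 to 29.5 on the smart scaffold. Of 6 endothelial markers, 2 were in the table and summed to at most 55, and the 2 epithelial markers of 5 summed to at most 6.93, with CDH1 at 0 in all 3 libraries of day 3. The erythroid markers were not analysed here. Day 3 replicate 2 stood apart from its group for some members, and values with and without it are given below. In bulk RNA, fewer cells of a type and less RNA per cell cannot be told apart.

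Values are the deposited normalised reads, and log2 changes were tested in limma on log2(value + 1) over all 10960 genes with a mean of at least 5. A gene rose or fell where its Benjamini-Hochberg adjusted p was under 0.05. Of the members, 51 of 52 passed this minimum, and PSMA2, an alpha subunit with 1 to 23 reads per library, did not. Most comparisons share the plastic libraries of day 0 or day 21, so their values are given side by side and are not independent.

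As a share of all reads in a library, proteasome transcripts made up 0.936 to 0.942% at day 0, 0.886 to 0.925% at day 3 and 0.552 to 0.559% on plastic at day 21, against 0.606 to 0.616% on the media scaffold and 0.659 to 0.664% on the smart scaffold. CCT transcripts went from 0.400 to 0.411% at day 0 to 0.304 to 0.369% at day 3 and 0.118 to 0.133% on plastic at day 21, with 0.163 to 0.168% on the media scaffold and 0.180 to 0.191% on the smart scaffold. No library of 1 group reached into the range of another group for either share. Group means were highest at day 0 for 33 of the 51 tested members (64.7%, against 26% of all genes tested) and lowest on plastic at day 21 for 33 (64.7%, against 33.5%). All 9 CCT genes had their highest mean at day 0, and their lowest means fell on plastic at day 21 for 6 and on the media scaffold for 3.

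**Figure D1:**
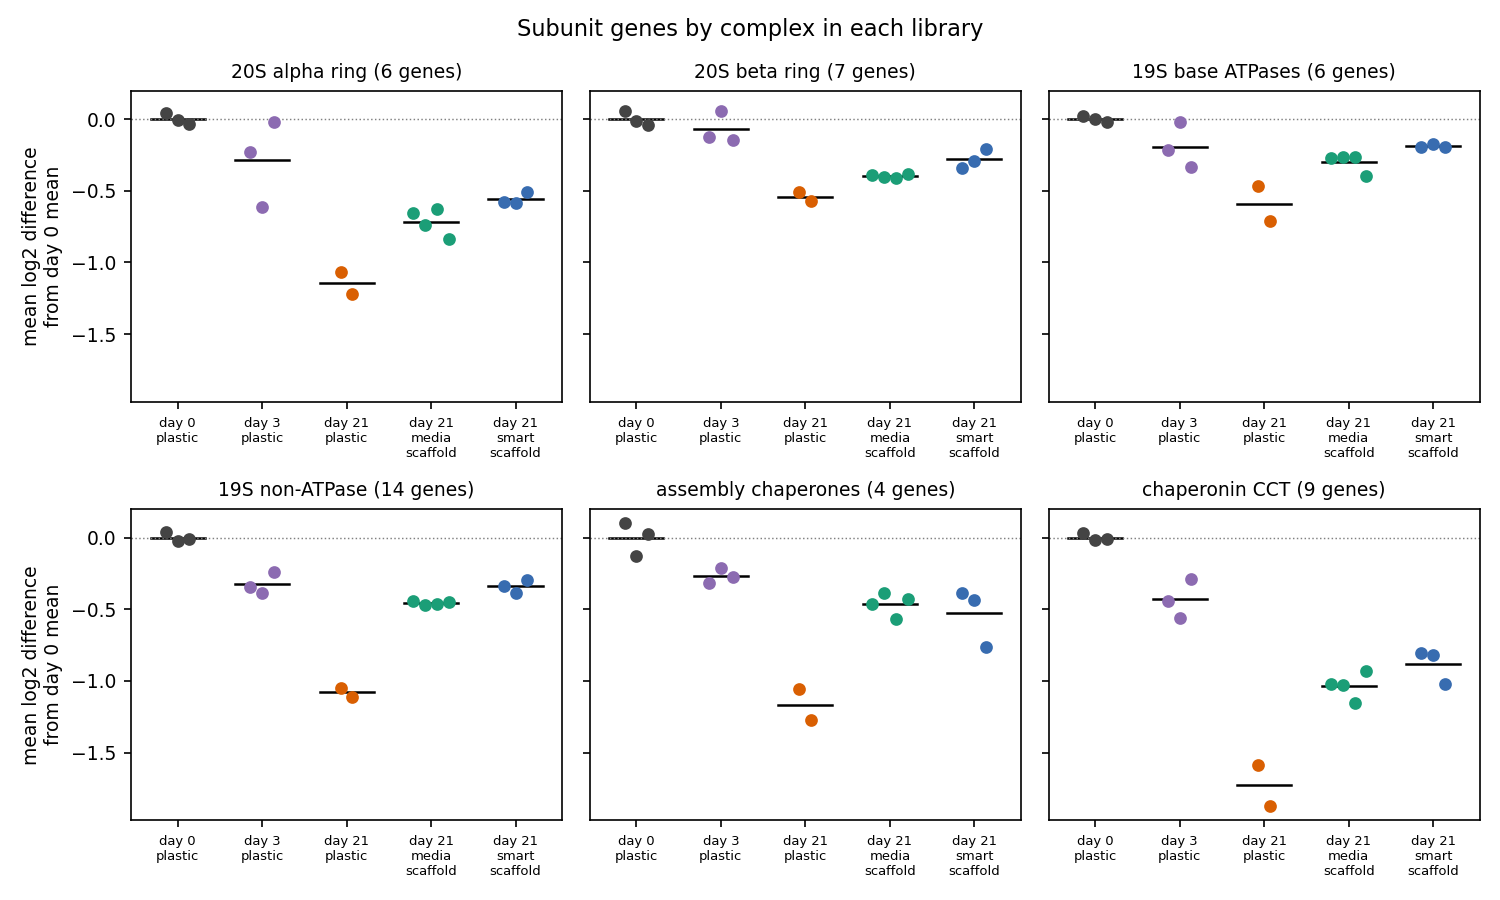
Mean log2 difference from the day 0 mean (vertical axis, log2 units) over the tested genes of 6 classes of subunit, 1 point per library and a line at each group mean. CCT libraries of plastic at day 21 lie lowest, at −1.58 and −1.87, while in the same libraries the 20S beta ring lies at −0.51 and −0.57 and the ATPases at −0.47 and −0.71.

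The first comparison asked what changed on plastic between day 0 and day 3 of differentiation medium. Falls were small and outnumbered rises: 16 of 51 members fell and 1 rose, none by 2-fold or more, with a median log2 change of −0.28 (−0.02 over all genes). Among all genes tested, 16.5% rose and 15.3% fell, and 6.27% rose and 3.73% fell by at least 2-fold. The falls comprised 7 of 14 PSMD genes, 5 of 9 CCT genes, 2 of 6 alpha subunits, the nuclear activator PSME3 and the assembly chaperone PSMG2, while 0 of 7 beta subunits and 0 of 6 ATPases passed the test. Scaling every library to the same total moved the counts from 16 falls and 1 rise to 10 and 2, and without day 0 replicate 1 there were 9 falls.

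The largest fall by day 3 was that of PSMD12, a lid subunit, with 464, 456 and 460.3 normalised reads at day 0 and 278, 187 and 330.3 at day 3 (log2 change −0.83 ± 0.16 SE, adjusted p = 0.000634). CCT8, the theta subunit of CCT, had 1807, 1909 and 1698 at day 0 and 1182, 712 and 1284 at day 3 (−0.81 ± 0.17, adjusted p = 0.00133). In both genes every day 3 library lay below every day 0 library, and 44.3% of all genes tested had no overlap between these groups. CCT2, the beta subunit, fell by 0.72 on the log2 scale (adjusted p = 3.32e-05), PSMD7, a lid subunit, by 0.70 (adjusted p = 0.000136), and TCP1, the alpha subunit of CCT, by 0.52 (adjusted p = 0.000347).

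PSME2 was the 1 member that rose by day 3. It encodes a subunit of the ring-shaped activator that opens the core's gate without ubiquitin and is known for its induction by interferon. Its values were 614, 636 and 634 at day 0 and 867, 939.8 and 778 at day 3 (0.45 ± 0.09, adjusted p = 0.000944). Its values did not overlap, as for 44.3% of all genes tested. Its partner PSME1 stayed at 1570.2, 1613 and 1564 against 1599.9, 1609 and 1458 (−0.03 ± 0.09).

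Between day 0 and day 21 on plastic, the genes of both complexes fell far and unevenly. Of 51 members, 37 fell, 23 of them by at least 2-fold, and 3 rose, 0 by as much. The median log2 change was −0.89, against −0.06 over all genes. Among all genes tested 36.3% fell and 33.4% rose, and 24.1% fell and 21.2% rose by at least 2-fold. The whole CCT ring fell, 9 of 9 genes with 7 by at least 2-fold and a median of −1.75, while the 42 proteasome genes had a median of −0.71. Of the 37 falls, 34 held in each of 15 other settings, among them 8 of the CCT genes. Exceptions were PSMB7, PSMD4 and the low CCT6B.

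In the alpha ring, PSMA1 and PSMA5 fell most. PSMA1 had 1289, 1152 and 1131 normalised reads at day 0, 954, 733 and 935 at day 3, and 313 and 213 on plastic at day 21, against 785, 829, 803 and 750.2 on the media scaffold and 812, 869 and 818 on the smart scaffold. Its change on plastic was −2.20 ± 0.14, a 4.59-fold lower level (adjusted p = 5.32e-10). PSMA5 went from 1393, 1298 and 1121 to 334 and 237 (−2.17 ± 0.14). PSMA6 fell by 1.10 on the log2 scale and PSMA7 by 0.51, the latter from 5813, 5385 and 5861 to 3689 and 4319. PSMA3 and PSMA4, with 3 to 46 and 8 to 74 reads per library, gave −0.40 ± 0.44 and −0.49 ± 0.36 and did not pass the test.

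The beta ring moved less. PSMB5, the chymotrypsin-like site and the main target of proteasome inhibitors, had 2986, 2809 and 2547 at day 0 and 1717 and 1302 on plastic at day 21 (−0.89 ± 0.12, adjusted p = 4.01e-06). Its values did not overlap, as for 79.7% of all genes tested. PSMB6, the caspase-like site, fell by 0.42 (adjusted p = 0.00189) and PSMB7, the trypsin-like site, by 0.40 (adjusted p = 0.013). The call for PSMB7 was lost without plastic day 21 replicate 1, at a change of −0.29. PSMB2 fell by 1.12 and PSMB3 by 0.78. PSMB1 and PSMB4 did not pass, at −0.22 ± 0.11 and 0.04 ± 0.10, and PSMB4 had 3055, 3156 and 3067 at day 0 and 2908 and 3498 at day 21.

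Among the 6 ATPases that form the unfolding ring, 2 fell and 4 did not pass. PSMC6 had 45.7, 42.7 and 36.3 normalised reads at day 0 and 11 and 3.44 on plastic at day 21, which rest on 8 reads and 1 read (−2.54 ± 0.35, adjusted p = 4.92e-06). PSMC4 fell by 0.66, from 1096, 1192 and 1109.6 to 849 and 605. The other 4 ranged from −0.20 for PSMC1 to −0.02 for PSMC5. PSMC5 had 1818, 1785 and 1826 at day 0 against 1467 and 2182 at day 21, so its 2 late libraries lay on either side of the early ones.

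PSMD genes fell in 12 of 14 cases, with 7 by at least 2-fold and a median of −1.02, and the cap's chaperones PSMD5, PSMD9 and PSMD10 were among those 12. PSMD12 fell furthest, to 82.8 and 75.6 (−2.53 ± 0.18, adjusted p = 1.18e-09). PSMD5 went from 334, 310.4 and 283 to 62.1 and 65.3 (−2.26 ± 0.22, adjusted p = 8.62e-08). PSMD14, the subunit that removes ubiquitin from the substrate, had 1193, 1131 and 1009 at day 0 and 302 and 234 at day 21 (−2.06 ± 0.15, adjusted p = 2.31e-09).

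PSMD1, a large scaffold subunit, had 1510.5, 1464 and 1558 against 457 and 405 (−1.81 ± 0.20), and PSMD11, a lid subunit that ties the cap to the core, fell by 0.89. Against this, PSMD2, the docking subunit for ubiquitin-like domains, was at −0.02 ± 0.13. PSMD13, another lid subunit, rose from 653, 741 and 705 to 961 and 859 (0.38 ± 0.14, adjusted p = 0.0197). That call was lost with every library at the same total, at 0.11, without day 0 replicate 1, at 0.33, and without plastic day 21 replicate 1, at 0.30.

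Genes for activators and assembly chaperones split. PSME3, the nuclear activator, fell from 1099, 888 and 973 to 367 and 265 (−1.65 ± 0.13), and PSME4, an activator known from chromatin and spermatogenesis, from 234, 247 and 257 to 178 and 120.3 (−0.75 ± 0.15). PSME2 rose to 1197 and 1216, a 1.92-fold increase (0.94 ± 0.10, adjusted p = 2.49e-07). The gate-opening partner PSME1 and the inhibitor PSMF1 did not pass, at 0.18 ± 0.10 and 0.20 ± 0.14.

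PSMG1 and PSMG2 form a pair that starts the assembly of the alpha ring, and PSMG3 and PSMG4 form a second pair at the same step. PSMG2 had the largest fall of all members, from 1096, 1073 and 939.9 to 181 and 124 (−2.78 ± 0.16, 6.87-fold lower, adjusted p = 1.41e-10). PSMG1 fell by 1.60 and PSMG3 by 1.15. PSMG4 rose instead, from 1032, 1027 and 1141 to 1916 and 1955 (0.86 ± 0.15, adjusted p = 7.95e-05), so members of the second pair moved in opposite directions.

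Of the CCT subunits, CCT8, CCT4 and CCT6A fell most, with log2 changes of −2.62, −2.55 and −2.54. CCT4, the delta subunit, had 1508, 1476 and 1388 normalised reads at day 0 and 304 and 203 on plastic at day 21 (adjusted p = 2.12e-08). CCT6A, the zeta subunit, had 2703, 2641 and 2556 against 513 and 395 (adjusted p = 4.58e-11). TCP1 went from 3655, 3524 and 3299 to 1075 and 1003 (−1.75 ± 0.10, adjusted p = 1.33e-10) and CCT2 from 3483, 3038 and 3134 to 966 and 818 (−1.85 ± 0.11).

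CCT5, the epsilon subunit, fell less, by 1.29, and CCT7, the eta subunit, by 0.99, from 3662, 3350.0 and 3491 to 1684 and 1832. CCT3, the gamma subunit, moved least, from 4323, 4735 and 4639 to 3173 and 2533 (−0.69 ± 0.12, adjusted p = 6.09e-05). Genes for subunits of 1 ring, which the complex holds in equal number, thus changed by 1.61-fold to 6.13-fold. CCT6B, a variant zeta subunit with 1 to 39 reads per library, gave −1.28 ± 0.56, and its call was lost in 9 of 14 other settings.

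**Figure D2:**
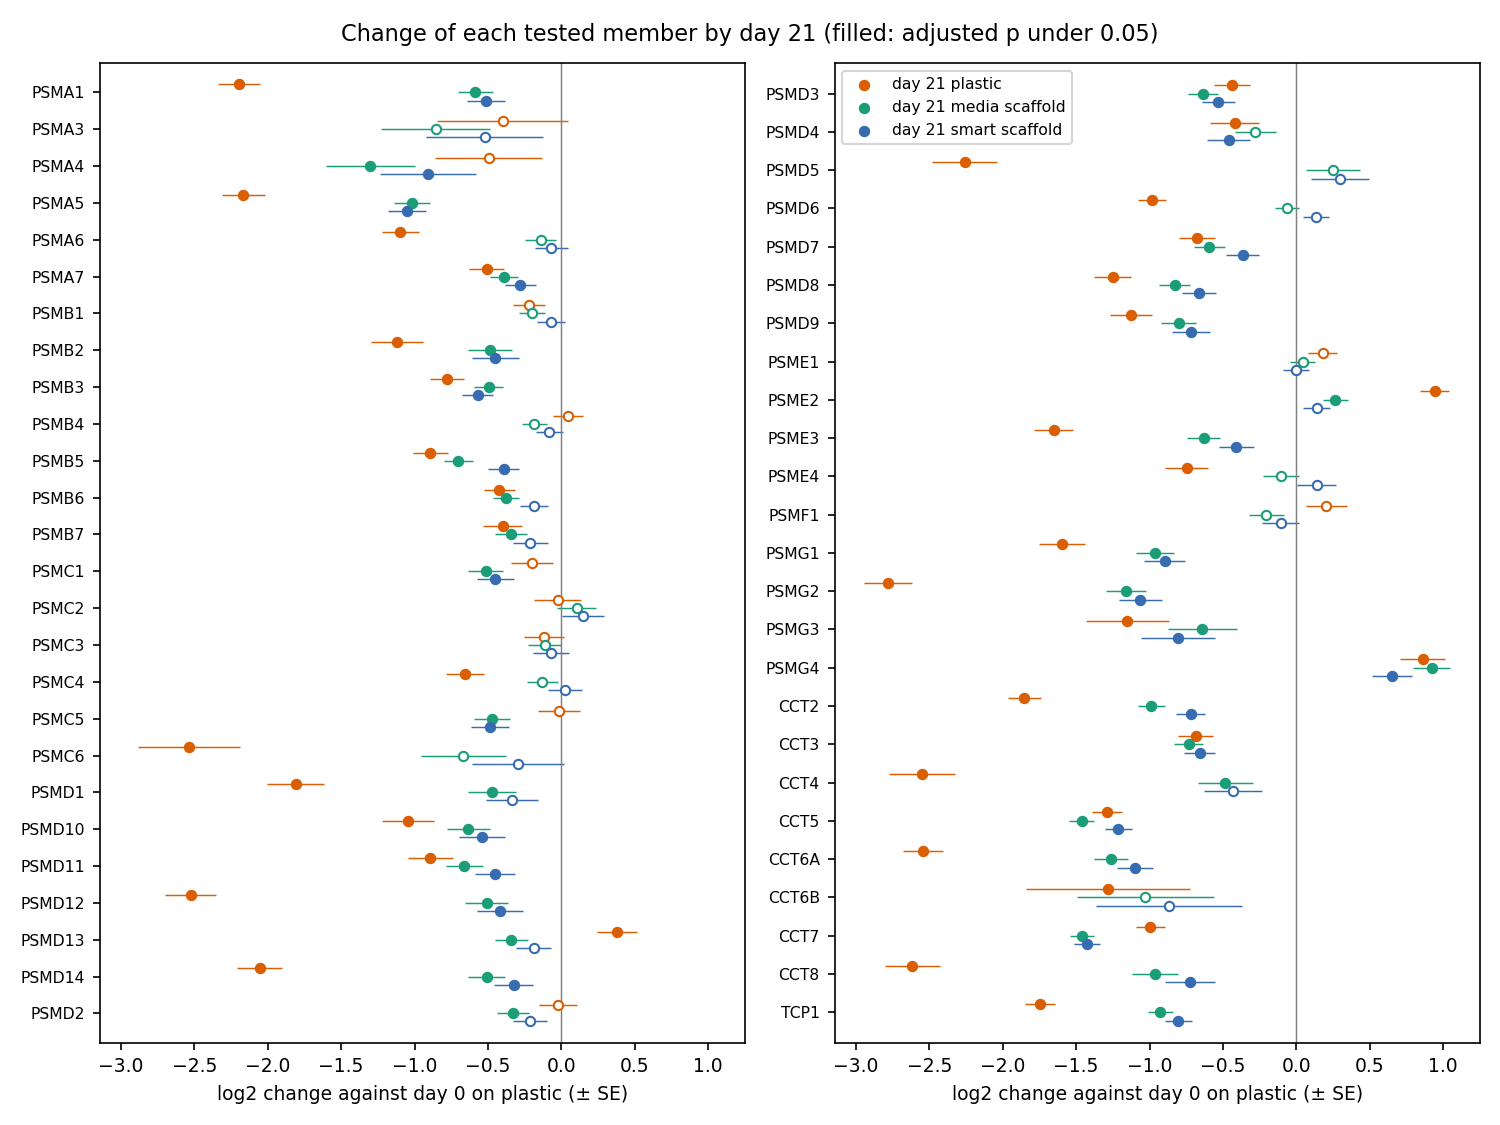
Log2 change (horizontal axis) with its standard error for each of the 51 tested members in the 3 groups of day 21 against plastic at day 0, filled where the adjusted p was under 0.05. Plastic points spread from −2.78 for PSMG2 to 0.94 for PSME2, and on both scaffolds the points of CCT4, PSMA1 and PSMD12 lie closer to 0 than on plastic while those of CCT7 lie farther from it.

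Most of the fall came after day 3. From day 3 to day 21 on plastic, 36 members fell, 16 by at least 2-fold, and 2 rose, with a median of −0.73 (−0.04 over all genes). Over all genes tested, 32.8% fell and 29.4% rose, and 19.4% fell and 15.5% rose by at least 2-fold. CCT4, CCT6A, PSMG2 and PSMC6 fell most, with log2 changes of −2.07, −2.05, −2.01 and −1.97. PSMD7 did not follow, with 1343, 1433 and 1812 at day 3 and 1469.8 and 1612 at day 21 (0.02 ± 0.13), after its fall in the first 3 days. The rises were those of PSMG4 (0.91 ± 0.15) and PSME2 (0.49 ± 0.10), and that of PSME2 was lost with every library at the same total, at 0.16. Leaving out plastic day 21 replicate 2 gave 4 rises.

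The 3 libraries of day 3 were not alike for these genes. CCT4 had 1203 and 1421 normalised reads in replicates 1 and 3 and 664 in replicate 2, PSMD5 had 279.6 and 316 against 144, PSMD1 had 1121 and 1401 against 672, and CCT8 had 1182 and 1284 against 712. In each, the second library lay between the rest of its group and the plastic libraries of day 21. These genes were among the lowest in replicate 2, and other members were higher in it. PSMC1 had 1907 and 1637 in replicates 1 and 3 against 2576, and PSMB7 had 2059 and 1792 against 2740. The median log2 difference of replicate 2 over the 51 members was 0.01. Across the 51 members, the log2 difference of replicate 2 from the mean of the other day 3 libraries correlated with the change from day 0 to day 21 on plastic (Pearson r = 0.54, Spearman rho = 0.60), against r = 0.25 and rho = 0.31 across all 10960 genes. With the changes to the media and smart scaffold the members gave r = 0.25 and 0.14, against −0.02 and −0.05 across all genes. Genes are not independent replicates, the points of 1 axis share a library, and no test was made.

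At a log2 difference of −0.5 or lower in replicate 2 stood 7 of 51 members (13.7%), against 16.3% of all genes, so being low in this library was no more common among members. Without it, the day 3 falls of PSMA1 and PSMD1 lost their calls, at −0.33 and −0.27, and the count of falls by day 3 was 13. The 4 immune markers summed to 26.8 to 75.4 normalised reads over the 3 libraries, and the part of other cells in these values was not tested.

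**Figure D3:**
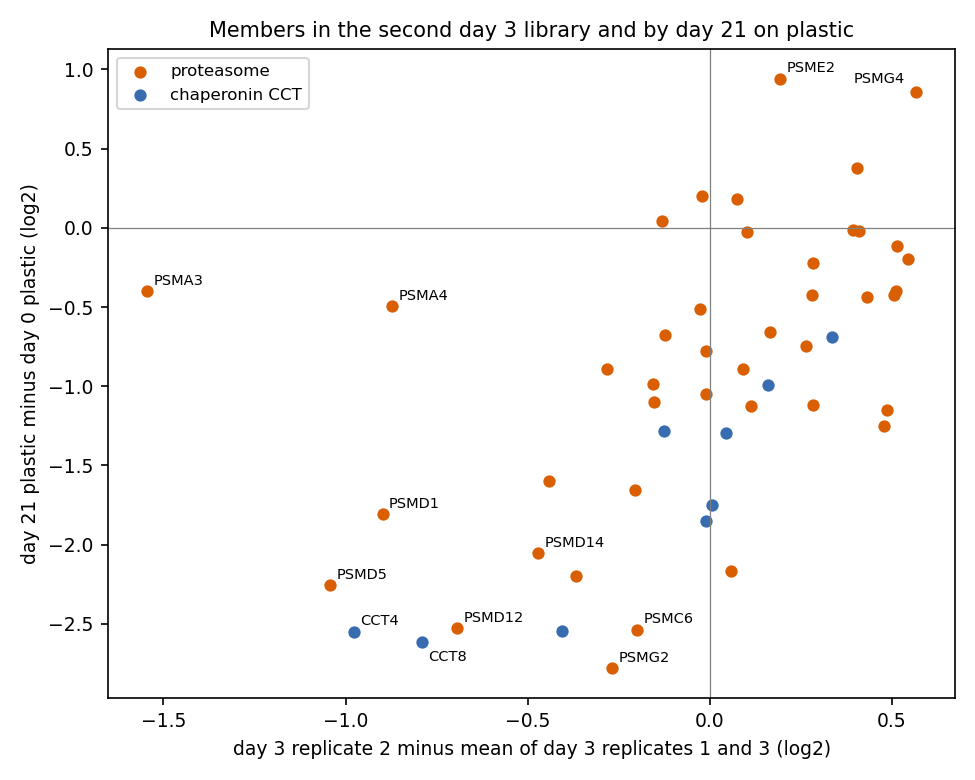
Each point is 1 of 51 tested members. The horizontal axis gives the log2 difference of day 3 replicate 2 from the mean of replicates 1 and 3, and the vertical axis the log2 change from day 0 to day 21 on plastic. CCT4, CCT8, PSMD1, PSMD5 and PSMD12 lie low on both axes, while PSMA3 and PSMA4, which rest on few reads, lie far left with small changes by day 21.

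At day 21 the scaffolds were set against plastic. Against plastic, 24 members were higher on the media scaffold, 12 by at least 2-fold, and 8 were lower, 0 by as much, with a median of 0.25 (0.02 over all genes). Over all genes tested, 32.9% were higher and 30.6% lower, and 20.8% were higher and 14.6% lower by at least 2-fold. On the smart scaffold, 26 were higher than on plastic, 15 by at least 2-fold, and 4 were lower, 0 by as much, with a median of 0.41 (0.01). Over all genes, 32.8% were higher and 31.1% lower there, and 21.4% were higher and 16% lower by at least 2-fold. Surface differed in the first comparison, and surface and the way the growth factors were given in the second. Of the 24 and 26 higher genes, 18 and 20 held in all 16 and 15 other settings.

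PSMD5 differed most, with 62.1 and 65.3 normalised reads on plastic, 353, 400.0, 352 and 366 on the media scaffold and 389.6, 363.5 and 386.2 on the smart scaffold. The changes were 2.51 ± 0.21 (adjusted p = 2.64e-08) and 2.56 ± 0.22 (adjusted p = 3.7e-08), or 5.69-fold and 5.88-fold. PSMD12 had 321, 322, 337 and 314 on the media scaffold and 395, 344 and 301 on the smart scaffold, 4.05-fold and 4.31-fold above plastic. CCT4 had 1065, 953, 1128 and 1028 and then 1032, 1076 and 1135 (2.07 ± 0.21 and 2.12 ± 0.22), and CCT8 had 882, 935, 958 and 928 and then 1108, 1085 and 1079 (1.66 ± 0.18 and 1.89 ± 0.19). For these 4 genes no scaffold library overlapped a plastic one. Over all genes tested this held for 71.2% on the media scaffold and 73.1% on the smart scaffold.

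PSMC6, PSMG2, PSMA1, PSMD14, PSMD1, CCT6A and PSMA5 were also at least 2-fold higher on both scaffolds, by 1.11 to 2.24 on the log2 scale. TCP1 rose to 1705, 1827, 1773 and 2050.2 on the media scaffold and 1936, 2152 and 1910.4 on the smart scaffold, and CCT2 to 1628, 1540.2, 1549 and 1769.9 and then 1897, 2058 and 1902. Both activators that had fallen on plastic were higher on scaffolds, PSME3 by 1.02 and 1.24 and PSME4 by 0.64 and 0.88. In the beta ring, PSMB5 was higher on the smart scaffold (0.50 ± 0.12, adjusted p = 0.00159) and lost that call without plastic day 21 replicate 2, at 0.30. On the media scaffold PSMB5 did not pass (0.19 ± 0.11).

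Other members were lower on scaffolds. PSME2 had 748, 787, 706 and 779 on the media scaffold and 723, 657 and 693 on the smart scaffold, below the 1197 and 1216 of plastic (−0.68 ± 0.10 and −0.80 ± 0.10). PSMD13 was lower by 0.72 and 0.57. CCT7 was the 1 chaperonin gene that passed the test as lower than on plastic, at 1291, 1346, 1182 and 1269 and at 1360.3, 1276 and 1272 (−0.47 ± 0.09, adjusted p = 0.000278, and −0.43 ± 0.10, adjusted p = 0.000883). CCT3 and CCT5 did not pass in either comparison, with changes from −0.17 to 0.08.

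PSMC5 was below plastic on both scaffolds, by 0.46 and 0.47, but its plastic libraries were far apart, and without replicate 2 of plastic neither change passed, at −0.17 and −0.19. PSMA4, PSMC1, PSMD2 and PSMF1 were lower on the media scaffold by 0.31 to 0.81, and each lost the call in at least 1 other setting. Without plastic day 21 replicate 2 the media scaffold had 3 lower members, without media scaffold replicate 1 or 3 it had 5, and edgeR on recovered reads called 4.

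**Figure D4:**
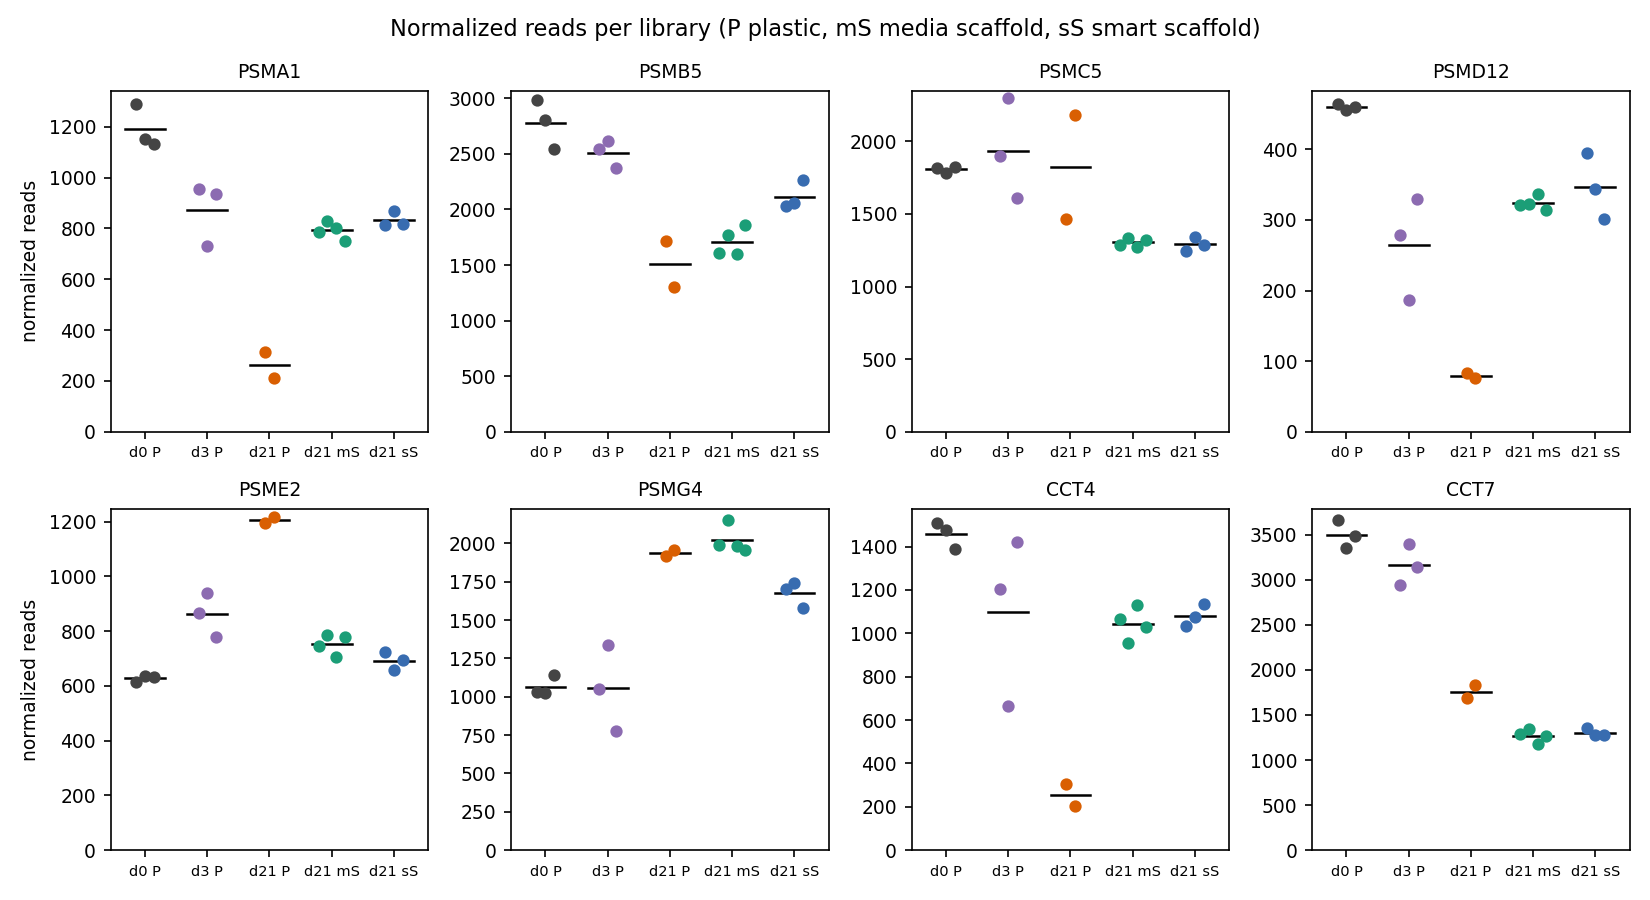
Normalised reads per library (vertical axes start at 0) of 8 members by group, with a line at each mean. PSMA1, PSMD12 and CCT4 are lowest on plastic at day 21 and higher on scaffolds, CCT7 is lowest on scaffolds, PSME2 is highest on plastic at day 21 at 1197 and 1216, PSMG4 is high in all 3 groups of day 21, and the 2 plastic libraries of PSMC5 at day 21 lie apart at 1467 and 2182.

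Between the scaffolds, limma called 0 members in either direction, where 0.693% of all genes tested were higher and 1.66% lower on the smart scaffold, and 0.073% higher and 0.83% lower by at least 2-fold. At an unadjusted p under 0.05 stood 7 members, 6 of them higher on the smart scaffold. edgeR called 0. DESeq2 on recovered reads called 2, PSMB5 and CCT5, and a fit of these 7 libraries alone called PSMB5, CCT2, CCT5 and CCT8 as higher and PSMG4 as lower. The genes are named after their values were seen.

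Even so, 43 of 51 members lay above 0 (84.3%, against 49.4% of all genes), with a median of 0.10 (0.00 over all genes), and all 9 CCT genes did. PSMB5 had 1610.2, 1770.1, 1599 and 1859.7 on the media scaffold and 2027, 2055 and 2264 on the smart scaffold (0.31 ± 0.10, adjusted p = 0.142, the lowest of any member). Its values did not overlap, as for 20.4% of all genes tested. CCT5 had 1576, 1508, 1535 and 1555 against 1779.6, 1857 and 1874 (0.25 ± 0.08, adjusted p = 0.16), and CCT2 gave 0.27 ± 0.09 (adjusted p = 0.18). PSMG4 had 1989, 2155, 1982 and 1954 against 1704, 1741 and 1576 (−0.27 ± 0.13, adjusted p = 0.378). The members share their libraries, so their common sign counts as 1 difference between groups of 4 and 3 libraries, not as many.

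Set against plastic at day 0, scaffold cells of day 21 still had lower levels of most members, in a comparison where time, medium and surface differ together. On the media scaffold 34 members were lower, 6 by at least 2-fold, and 2 were higher, 0 by as much, with a median of −0.51 (0.00 over all genes). Over all genes 30.9% were lower and 32.5% higher, and 14.9% were lower and 17.5% higher by at least 2-fold. On the smart scaffold 29 were lower, 5 by at least 2-fold, and 1 was higher, with a median of −0.43 (0.00). Over all genes 29.9% were lower and 30.8% higher, and 14.1% were lower and 16.5% higher by at least 2-fold.

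Members at least 2-fold lower on both scaffolds were CCT5, CCT6A, CCT7, PSMA5 and PSMG2, joined on the media scaffold by the low PSMA4. CCT7 and CCT5 changed most, both by −1.46 on the media scaffold (adjusted p = 4.27e-11 and 8.03e-11) and by −1.42 and −1.21 on the smart scaffold. PSMD5, PSMD6, PSMA6, PSMC4, PSMC6, PSME4 and the low CCT6B, which had fallen on plastic with changes from −2.54 to −0.66, did not pass against day 0 on either scaffold, with changes from −1.03 to 0.30. PSMD5 lay above every day 0 library in all 7 scaffold libraries, at 0.25 ± 0.18 and 0.30 ± 0.20. Over all genes tested, 72.4% and 72.9% had no overlap with day 0 on the media and smart scaffold.

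PSMG4 was higher than at day 0 on the media scaffold (0.92 ± 0.13, adjusted p = 6.29e-06) and on the smart scaffold (0.65 ± 0.14, adjusted p = 0.000532), as on plastic. PSME2 was higher on the media scaffold by 0.26 (adjusted p = 0.0109), a call that was lost with every library at the same total, at 0.02. PSMD1 was lower by 0.47 on the media scaffold and did not pass on the smart scaffold (−0.33). CCT4 was lower by 0.48 on the media scaffold (adjusted p = 0.032), and this call was lost without any 1 of the 3 day 0 libraries and without media scaffold replicate 1, 2 or 4, with changes no nearer to 0 than −0.44. Without day 0 replicate 1 the smart scaffold had 21 lower members.

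The inducible subunits, which replace PSMB6, PSMB7 and PSMB5 in the immunoproteasome that prepares peptides for antigen presentation, were read beside them. PSMB10, the partner of PSMB7, had 345, 312 and 313 at day 0, 543, 631 and 407 at day 3, 1925 and 2199 on plastic at day 21, 1134, 1176, 1139 and 1144 on the media scaffold and 948, 1112 and 1114 on the smart scaffold. Its rise on plastic was 2.67 ± 0.14 by day 21 (adjusted p = 4.01e-11), and scaffold cells lay between day 0 and plastic. PSMB8, the partner of PSMB5, had 133, 169 and 173 at day 0, 275 and 219.9 on plastic at day 21, and 42.9 to 68.8 in all scaffold libraries, so it rose on plastic (0.64 ± 0.21) and was lower than day 0 on both scaffolds (−1.52 and −1.77). PSMB9, the partner of PSMB6, fell in all 3 groups of day 21, by 1.49, 2.14 and 2.37. The peptide transporter gene TAP1 gave a log2 change of −3.34 on plastic, and TAPBP, its partner in peptide loading, 1.79. TAP1 had 17.9 and 13.7 on plastic at day 21, where 1 read was worth 1.38 and 3.44.

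These genes did not move as a set, with 3 of 6 higher and 3 lower on plastic at day 21. Of the 4 immune markers, 3 rose on plastic by day 21 and all 4 were lower on both scaffolds than on plastic. Of all genes tested, 33.4% rose and 36.3% fell on plastic by day 21. Lower than on plastic were 30.6% on the media scaffold and 31.1% on the smart scaffold. CD14, a monocyte surface protein, had 0.53 to 1.58 at day 0, 56.6 and 65.3 on plastic at day 21 and 2.46 to 5.92 on scaffolds. It was higher on scaffolds than at day 0 (1.39 and 1.58). That change rests on few reads, since 1 read was worth 0.395 to 1.65 normalised reads in the libraries compared. CD68, a macrophage protein, did not pass on plastic, with 18.3, 14.9 and 15.8 at day 0 and 15.2 and 17.2 at day 21 (−0.01 ± 0.48), and was lower on scaffolds than at day 0 (−1.94 and −1.86). PTPRC and TYROBP were not analysed here, and the part of such cells in the plastic values was not tested.

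Of 14 genes for proteasome partners with other symbols, 9 fell and 1 rose from day 0 to day 21 on plastic. These shares were 64.3% and 7.14%, against 36.3% and 33.4% of all genes tested. On the media scaffold 8 were higher and 2 lower than on plastic (57.1% and 14.3%, against 32.9% and 30.6%). USP14 and UCHL5, which trim ubiquitin at the cap, fell by 2.35 and 2.21 on plastic and were higher on the media scaffold by 1.80 and 1.72. POMP, which completes the core with the PSMG pairs, had 968, 859 and 881 at day 0, 409 and 241 on plastic at day 21, 756, 770.1, 759 and 764 on the media scaffold and 761, 848 and 843 on the smart scaffold (−1.52 on plastic against day 0, and 1.28 and 1.38 on scaffolds against plastic). It was picked for display after its values were seen. UBE3C, a ligase bound to the proteasome, rose on plastic by 0.53.

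NFE2L1, the transcription factor known to raise proteasome genes when degradation is short, rose where subunit genes fell. It had 1243, 1308 and 1309 at day 0, 2130.0, 2548 and 2029.7 at day 3, 4310.0 and 5202 on plastic at day 21, 2739, 2773, 2723 and 2773 on the media scaffold and 2789.9, 2866 and 2823 on the smart scaffold. The change by day 21 was 1.88 ± 0.11 on plastic, 1.10 ± 0.09 on the media scaffold and 1.13 ± 0.09 on the smart scaffold, each with a higher level in every library than at day 0. Over all genes tested, 79.7%, 72.4% and 72.9% had no overlap with day 0 in the same comparisons. NGLY1, an enzyme that processes NFE2L1, fell on plastic by 1.45 and was higher on scaffolds than on plastic by 1.07 and 1.37. DDI2 and MAFK were not analysed here.

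Among 15 genes for ubiquitin and its shuttles, 7 rose and 4 fell from day 0 to day 21 on plastic. These shares were 46.7% and 26.7%, against 33.4% and 36.3% of all genes tested. NBR1, an autophagy receptor, rose 3.82-fold, and the shuttle RAD23B and the ubiquitin-activating enzyme UBA6 fell by 1.37 and 1.97. UBA6 rests on few reads on plastic at day 21, with 2.76 and 6.87 normalised reads where 1 read was worth 1.38 and 3.44. SQSTM1, a receptor that carries ubiquitin-tagged cargo to autophagy, rose by 0.59 on plastic and by 1.94 and 1.99 on the scaffolds.

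Most genes for the cofactors that hand clients to CCT fell beside it on plastic. Of 11 genes for prefoldin subunits and phosducin-like cofactors, 10 fell by day 21 and 1 rose. These shares were 90.9% and 9.09%, against 36.3% and 33.4% of all genes tested. On the media scaffold 7 were higher and 2 lower than on plastic (63.6% and 18.2%, against 32.9% and 30.6%). URI1, a prefoldin-like protein, had 169, 133 and 120.4 at day 0, 24.8 and 6.87 on plastic at day 21, 117 to 145 on the media scaffold and 105 to 139 on the smart scaffold (−3.30 on plastic, and 3.20 and 3.10 on scaffolds against plastic). The cofactor PDCL fell by 2.58 on plastic, to 45.5 and 13.7. In the second plastic library of day 21, 1 read was worth 3.44, so URI1 and PDCL rest on few reads in it. PFDN5 was the 1 that rose on plastic, by 1.92. The summed level of all 11 genes did not fall clearly, with 6636 to 7077 normalised reads at day 0 and 6260 to 7250 on plastic at day 21.

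Of 17 tested genes for the clients tubulin and actin and for tubulin cofactors, 12 fell and 3 rose on plastic by day 21. These shares were 70.6% and 17.6%, against 36.3% and 33.4% of all genes tested. On the media scaffold 13 were lower and 3 higher against day 0 (76.5% and 17.6%, against 30.9% and 32.5%). Against plastic at day 21, 3 were higher and 7 lower on the media scaffold (17.6% and 41.2%, against 32.9% and 30.6%). On the smart scaffold 3 were higher and 8 lower than on plastic (17.6% and 47.1%, against 32.8% and 31.1%). ACTG1, cytoplasmic gamma-actin, fell by 2.14 on plastic and was higher on the scaffolds than on plastic by 1.63 and 1.86. TUBA1B, an alpha-tubulin, fell by 2.13 on plastic and stayed lower than day 0 on the scaffolds, by 1.71 and 1.43. TUBB6, a beta-tubulin, was lower on the scaffolds than on plastic, by 1.11 and 0.86.

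Of 26 cytosolic heat shock chaperones, 19 fell and 3 rose on plastic by day 21 (73.1% and 11.5%, against 36.3% and 33.4% of all genes tested). On the media scaffold 9 were higher and 6 lower than on plastic (34.6% and 23.1%, against 32.9% and 30.6%). On the smart scaffold 11 were higher and 4 lower (42.3% and 15.4%, against 32.8% and 31.1%). HSPH1, an exchange factor of the same system, fell by 2.93 and was higher on the scaffolds than on plastic by 3.09 and 3.26. STIP1, which links the chaperones HSP70 and HSP90, fell by 1.53 and stayed lower than day 0 on the scaffolds by 1.84 and 1.60. CRYAB had 2332 to 2502 normalised reads at day 0 and 551 and 539 on plastic at day 21. Its values were 5913 to 6591 on the media scaffold and 8665 to 9829 on the smart scaffold. Of 11 rows for mitochondrial chaperones and proteases, 9 fell (81.8%) and 0 rose on plastic, against 36.3% and 33.4% of all genes tested.

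Proliferation genes fell against day 0 in the same groups as the members, but did not follow them throughout. Their median log2 change against day 0 was −3.63 on plastic, −3.47 on the media scaffold and −3.66 on the smart scaffold. Members had medians of −0.89, −0.51 and −0.43. From the media to the smart scaffold, 2 proliferation genes lay above 0 and 13 below, where 43 of 51 members lay above 0. All 15 listed fell by day 21 in each of the 3 groups. On plastic, media scaffold and smart scaffold, 36.3%, 30.9% and 29.9% of all genes tested fell. By day 3, 14 of 15 fell, against 15.3% of all genes. On the media scaffold 7 were higher and 2 lower than on plastic (46.7% and 13.3%, against 32.9% and 30.6%). MKI67, a marker of cycling cells, had 1342, 1772 and 1702 at day 0, 729, 1067 and 1060.4 at day 3, 23.5 and 20.6 on plastic at day 21, 77 to 98 on the media scaffold and 62.1 to 75.9 on the smart scaffold. CCNB1, a mitotic cyclin, had 483 to 572 at day 0 and 13.8 to 61.2 over all libraries of day 21. Scaffold cells were thus much nearer to plastic at day 21 than to day 0 for MKI67 (−4.20 and −4.53 against day 0, 1.91 and 1.59 against plastic). The part of proliferation in the members' values was not tested.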

How the data were processed

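Polyadenylated RNA was read by MARS-seq, per the labels. The submitters' processing notes name cutadapt, STAR, HTSeq, DESeq and the build ARS-UCD1.2. Tool versions, strand setting and any use of molecular identifiers were not given in the sources used here. The deposited signal is each library's read count divided by 1 factor, going by the values: dividing by the value of 1 read gave whole reads for 100% of values (tolerance 0.1). Names of 2 value columns matched no label, so they were left unused, as was day 0 on scaffold. With limma 3.58.1 under R 4.3.3 (trend, robust), log2(signal + 1) was tested in 1 fit of 15 libraries with 5 group means, two-sided, over 10960 genes with a mean of at least 5, leaving out 1934. Benjamini-Hochberg adjustment covered each of 8 comparisons, and the script was tested on simulated data. edgeR 4.0.16 and DESeq2 1.42.0 on recovered reads were alternatives (edgeR called 32.4% of genes higher and 35.5% lower from day 0 to day 21 on plastic, against 33.4% and 36.3%), as were pseudocounts of 0.5 and 4, no filter, a minimum mean of 20, equal totals, quantile normalization, the compared groups alone, a replicate block and leaving out each library. Members and lists were chosen with earlier results of these data known. Named were fixed landmark subunits, the 5 largest rises and falls per comparison, and up to 2 passing genes each way of other lists, MKI67 and CCNB1, with further members as description. Replicates correlated at 0.962 to 0.992 and differed by more than counting noise. No coordinates or sequences are printed, since no genome of the reads' build was used here.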

Additional observations from a re-analysis of the deposited data

Results flagged for a closer look

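In the media scaffold group, the 1 group with 4 libraries, 51 members were checked for a library far from the others, and 2 had one; chance alone gives about 1 in 20. PSMD3, a lid subunit, had 867.68 normalised reads in replicate 4, below the 978 to 995 of the other 3 libraries. PSMG4, an assembly chaperone of the alpha ring, had 2155.12 in replicate 2, above the 1954 to 1989 of the others. Without media scaffold replicate 2, PSMG4 stayed higher than at day 0.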

How the results depend on the processing

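The counts of members are limited by 2 plastic libraries at day 21 and by depth for PSMA3, PSMA4, PSMC6 and CCT6B. For 208 pairs of 34 named members and comparisons, 3163 of 3284 values under an alternative stayed on their side of the threshold (48 of these, with no call, changed sign), 76 lost the call, 44 gained it and 1 reversed. The 1 reversed was PSME1 on the media scaffold against day 0, which with every library at the same total went to −0.21 (adjusted p = 0.0267). Under that scaling the median change over all genes from day 0 to day 21 on plastic was −0.31 in place of −0.06. The shares of all genes called higher and lower went from 16.5% and 15.3% to 19.1% and 11.8% by day 3, from 33.4% and 36.3% to 26.7% and 43.6% by day 21 on plastic, and from 29.4% and 32.8% to 19.6% and 43.8% between day 3 and day 21. Against day 0 they went from 32.5% and 30.9% to 24.7% and 41.2% on the media scaffold and from 30.8% and 29.9% to 23.5% and 38.7% on the smart scaffold. Equal totals gave 2 rises and 10 falls by day 3 (1 and 16 reported), 1 rise between day 3 and day 21 (2 reported) and 1 higher member on the media scaffold against day 0 (2 reported). DESeq2 gave 2 rises by day 3 and 2 members higher on the smart than on the media scaffold (0 reported), and edgeR gave 4 lower members on the media scaffold against plastic (8 reported). The compared groups alone gave 4 members higher and 1 lower on the smart than on the media scaffold (0 reported), and 2 higher on the smart scaffold against day 0 (1 reported). Leaving out 1 library gave 9 to 19 falls by day 3, 2 to 4 rises between day 3 and day 21, and 3 to 9 lower members on the media scaffold against plastic. Causes were not tested. For libraries with the same replicate number, deviations from the group mean correlated at −0.07 to 0.16. Libraries with different numbers were not compared, so these values cannot say whether replicate numbers pair the libraries. With the replicate block, day 21 against day 0 on plastic gave 37 falls and 3 rises as without it, and the media scaffold against plastic 22 higher and 6 lower members.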
